A study of Mus musculus with 21 samples.

Results

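The cell cycle genes described here are 43 named genes: 20 that act around the entry into DNA synthesis (G1/S), 19 that act in G2 phase and mitosis (G2/M) and 4 inhibitors of cyclin-dependent kinases or of their activity. A gene was a member when its symbol stood in the platform annotation of the array, which held 42 of the 43 among 25428 measured genes. The annotation used here did not list Ccnb1, which left 18 G2/M members. The rule goes by symbol and uses no measured value.

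RNA came from whole livers of 10 Gata4-LSEC-KO mice and 11 sibling control mice, 1 Affymetrix array for each animal, all on the diet that the labels call std. In the knockout, Gata4 floxed mice (STOCK Gata4tm1.1Sad/J) had been crossed to the driver C57BL/6N-Tg(Clec4g-icre)1.1Sgoe, in which sequence of Clec4g, a lectin gene of liver sinusoidal endothelium, directs the recombinase. Controls have the genotype wt in the labels, and whether they carried the driver or a floxed allele is not given in the sources used here, nor is sex or age. The sample numbers form 2 runs of consecutive values, with 4 knockout and 5 control livers in run 1 and 6 knockout and 6 control livers in run 2. All values are log2 signals normalised by RMA. Genotype was tested with limma with run as a term over all livers, and adjusted p-values are Benjamini-Hochberg values over all 25428 genes.

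A few facts of the whole data set bear on these genes. Gata4 ranged from 6.10 to 6.92 in knockout livers and from 6.34 to 7.35 in control livers, and its difference of -0.19 ± 0.10 (SE) missed the threshold (limma adjusted p = 0.264); the place of its probes relative to the deleted part is not given in the sources used here, so it checks nothing about the labels. Clec4g fell by 0.92 ± 0.23 (adjusted p = 0.0176), and 6 of 10 markers of sinusoidal endothelium fell. Hepatocyte markers were bright, with albumin (Alb) between 13.75 and 13.81 in knockout livers and in control livers alike, except Ass1, which ranged from 3.92 to 6.0 in knockout livers and from 2.90 to 5.88 in control livers. The array median was 3.75, and the control mean of 11 of the 18 G2/M members lay below it, against 1 of 20 G1/S members and 1 of 4 inhibitors. Such dim values can lie close to background, where a fold change is compressed.

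A dividing cell passes from G1 phase through DNA synthesis to mitosis under cyclin-dependent kinases, each active only with a cyclin partner. Cyclin D with Cdk4, and then cyclin E with Cdk2, inactivate the RB proteins and free E2F factors, which induce the genes of replication; later a MuvB complex with B-Myb and Foxm1 induces the mitotic genes. In adult liver most hepatocytes rest outside the cycle and can re-enter it after tissue loss, and transcripts of mitosis can also come from dividing leukocytes, endothelial cells or blood cell precursors. In whole liver, a change in the number of dividing cells and a change in RNA per dividing cell cannot be told apart.

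The phases differ in the sequences upstream of their genes. G1/S genes are known for E2F sites, and G2/M genes for the cell cycle homology region (CHR) and CCAAT boxes, so the 150 bases before the transcription start are shown for 3 G2/M and 2 G1/S members of the results below. Sequences are from RefSeq, build GRCm38.p6, 5′ to 3′ on the strand of the gene. Capitals mark motifs on either strand. The E2F core was searched as the letters TTGGCGC and as the letters TTCCCGC, further as the letters TTGCCGC and as the letters TTCGCGC. The CHR was searched as the letters TTTGAA and as the letters TTTAAA, and the CCAAT box by the letters of its name; matches may overlap.
Cdk1 (chr10:69352913-69353062, minus strand): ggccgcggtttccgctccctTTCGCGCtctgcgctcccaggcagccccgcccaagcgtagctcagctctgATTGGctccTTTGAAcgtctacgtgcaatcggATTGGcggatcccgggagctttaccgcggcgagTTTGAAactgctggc
Top2a (chr11:99024190-99024339, minus strand): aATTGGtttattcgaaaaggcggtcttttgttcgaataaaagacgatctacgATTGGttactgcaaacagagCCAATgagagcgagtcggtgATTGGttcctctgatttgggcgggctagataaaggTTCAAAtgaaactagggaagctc
Plk1 (chr7:122159285-122159434, plus strand): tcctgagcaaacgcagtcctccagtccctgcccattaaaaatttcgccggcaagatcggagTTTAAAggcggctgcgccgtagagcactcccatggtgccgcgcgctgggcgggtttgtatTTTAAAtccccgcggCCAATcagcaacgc
Mcm6 (chr1:128359706-128359855, minus strand): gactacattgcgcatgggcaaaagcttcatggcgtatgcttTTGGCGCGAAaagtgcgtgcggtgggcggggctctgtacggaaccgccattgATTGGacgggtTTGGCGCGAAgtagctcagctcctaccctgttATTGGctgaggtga
Cdk4 (chr10:127063385-127063534, plus strand): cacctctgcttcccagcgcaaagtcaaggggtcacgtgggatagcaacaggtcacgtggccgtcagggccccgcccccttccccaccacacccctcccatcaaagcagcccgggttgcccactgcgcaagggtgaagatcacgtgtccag

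In these stretches Cdk1 has 1 E2F core, 2 CHR matches and 2 CCAAT boxes, Top2a has 1 CHR match and 4 CCAAT boxes, and Plk1 has 2 CHR matches and 1 CCAAT box. Mcm6 has 4 overlapping E2F core matches in 2 places, since the letters TTGGCGCGAA hold a match on each strand, and Cdk4 has none of the 3 motifs. A promoter of 250 bases before to 50 bases after the start was listed for 33 of the 42 members. The E2F core stood in 9 of 16 G1/S promoters and 2 of 13 G2/M promoters, against 9.69% of 27025 promoters of all genes. A CHR match and a CCAAT box together stood in 10 of 13 G2/M promoters and 4 of 16 G1/S promoters, against 10.9% of all. Counted singly, a CCAAT box stood in 11 of 13 G2/M and 11 of 16 G1/S promoters, against 37.9% of all. A CHR match stood in 11 of 13 and 6 of 16, against 27.8% of all. A match is a description of letters and does not show that a factor binds there.

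Knockout livers had more transcript of 3 of the 42 members: the G1 kinase Cdk4, the mitotic kinase Cdk1 and Birc5, the survivin subunit of the chromosomal passenger complex. No member was lower, by limma at an adjusted or at an unadjusted p below 0.05. This is 7.14% of the members, near the 7.33% of all genes that passed in either direction; 3.28% of all genes passed as higher and 4.05% as lower. At an unadjusted p below 0.05, 20 members were higher and 0 lower, against 9.41% and 13.0% of all genes; 13 of these 20 were G2/M members, 5 were G1/S members and 2 inhibitors. The difference was positive for 36 of 42 members and for 45.1% of all genes. Its median was 0.42 over the G2/M members, 0.14 over the G1/S members, 0.21 over the inhibitors and -0.013 over all genes, on the log2 scale. The medians were alike in the 2 runs, at 0.39 in run 1 and 0.41 in run 2 for G2/M members and at 0.17 and 0.14 for G1/S members.

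**Figure D1:**
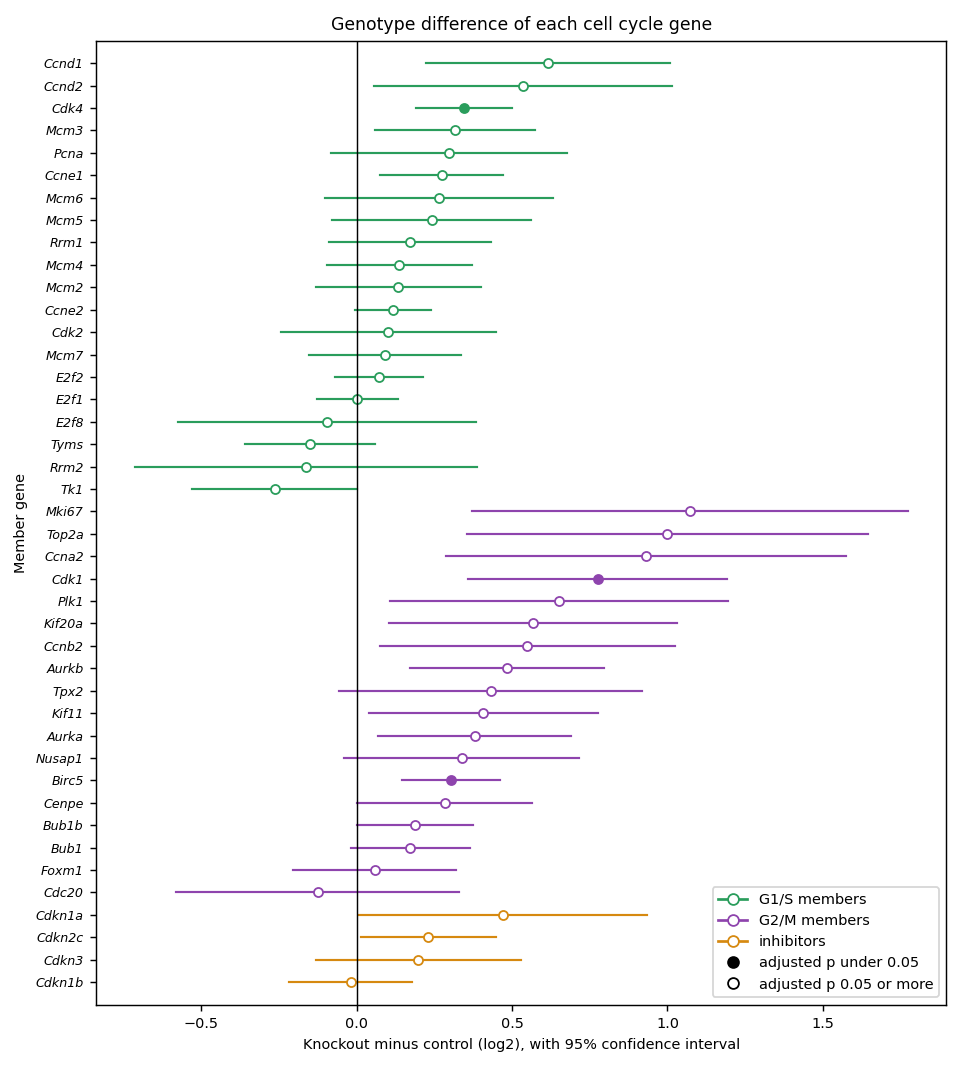
Knockout minus control difference of each member on the log2 scale (x axis) with its 95% confidence interval, by phase; filled points passed at an adjusted p under 0.05. Of the 18 G2/M members 17 lie right of 0, and the filled points are Cdk4, Cdk1 and Birc5.

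The number of members past the threshold depended on single livers. It was 9 without control replicate 3, 8 without knockout replicate 2, 6 without knockout replicate 1 or 9 and 5 without control replicate 2 or knockout replicate 7. Cdk4, Cdk1 and Birc5 were among the called members each time an array was left out. The share of all genes called in each of these fits is not set beside these counts. The counts therefore do not show whether members gained calls more than other genes did. Run 1 alone, with 4 knockout and 5 control livers, called 0 of the members and 0.0118% of all genes in limma. There 4 members had an unadjusted p below 0.05, against 11.8% of all genes. Run 2 alone, with 6 livers of each genotype, called Cdk1 and Birc5 as higher and Tk1 as lower, against 5.06% of all genes, and 16 members had an unadjusted p below 0.05, against 22.2% of all genes. Cdk4 did not pass in run 2 alone (limma adjusted p = 0.183).

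Among the G1/S members, 6 of 6 cyclins and kinases that start the cycle had a positive difference, with a median of 0.31, and Cdk4 passed. Cdk4, the kinase partner of the D cyclins, had a lowest, median and highest value of 7.50, 7.66 and 8.12 in knockout livers and 6.83, 7.51 and 7.75 in control livers. Controls of run 1, from 6.83 to 7.30, lay below controls of run 2, from 7.51 to 7.75. The groups overlapped over both runs, and after subtraction of the control mean of each run 6 of 10 knockout livers lay above the highest control. Cdk4 averaged 7.71 ± 0.20 in knockout livers (SD, n = 10) and 7.34 ± 0.34 in control livers (SD, n = 11), a rise of 0.34 ± 0.07 (SE) or 1.27-fold (limma adjusted p = 0.0086). The rise was 0.53 in run 1 and 0.21 in run 2 (interaction p = 0.0318, adjusted p = 0.43), and the call was lost when run was left out of the fit (adjusted p = 0.0664).

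Cyclin D1 (Ccnd1), the D cyclin best known from regenerating liver, had a lowest, median and highest value of 8.33, 9.56 and 10.15 in knockout livers and 8.11, 8.88 and 9.51 in control livers. Its difference of 0.62 ± 0.19 (1.53-fold) missed the threshold (limma adjusted p = 0.0512). After subtraction of the control mean of each run, 7 of 10 knockout livers lay above the highest control, and the 3 that did not were replicates 3, 4 and 6. The difference was 0.19 in run 1 and 0.93 in run 2 (interaction p = 0.0529, adjusted p = 0.496). Without knockout replicates 3 and 6 together Ccnd1 passed, with a difference of 0.82 (adjusted p = 0.0078).

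Cyclin D2 (Ccnd2) ranged from 5.74 to 6.84 in knockout livers and from 5.0 to 7.45 in control livers, a difference of 0.53 ± 0.23 (adjusted p = 0.167). The highest of all 21 values was that of control replicate 3, and without that liver the difference was 0.72 (adjusted p = 0.004). Cyclin E1 (Ccne1), a partner of Cdk2, ranged from 3.80 to 4.55 in knockout livers and from 3.67 to 4.28 in control livers, with a difference of 0.27 ± 0.09 (adjusted p = 0.0831). Cyclin E2 (Ccne2) had a difference of 0.12 and Cdk2 one of 0.10, and both intervals included 0.

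The E2F factors of the set showed differences near 0. The activator E2f1 had a median of 4.02 in knockout livers and 4.01 in control livers, a difference of 0.0018 ± 0.062, and the activator E2f2 a difference of 0.07 ± 0.07. E2f8, an atypical E2F that represses its targets, ranged from 3.21 to 5.10 in knockout livers and from 3.51 to 5.20 in control livers, a difference of -0.10 ± 0.23. Groups overlapped over nearly their whole range for E2f1 and E2f8, while E2f2 spread wider in knockout livers, from 3.64 to 4.33, than in control livers, from 3.79 to 4.02. The 95% intervals of E2f1 (-0.13 to 0.13) and E2f2 (-0.07 to 0.21) leave room only for small shifts of the array signal, while that of E2f8 (-0.57 to 0.38) is wide. The control means of E2f1 (3.97) and E2f2 (3.91) lay little above the array median of 3.75, so a compressed fold change is possible there.

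Of the 11 genes of replication and nucleotide supply, 8 differences were positive and none passed in limma, with 1 (Mcm3) at an unadjusted p below 0.05. The 6 subunits of the MCM helicase, which unwinds DNA at the fork, had differences between 0.09 (Mcm7) and 0.32 (Mcm3, adjusted p = 0.124). For Mcm3 the lowest, median and highest values were 4.27, 4.60 and 5.70 in knockout livers and 3.83, 4.33 and 5.01 in control livers. Mcm6, whose promoter letters are given above, ranged from 4.05 to 5.53 in knockout livers and from 3.94 to 5.15 in control livers, with a difference of 0.27 ± 0.18. Knockout replicate 6 held the highest of all 21 values for Mcm2, Mcm3, Mcm4, Mcm5, Mcm6 and Mcm7. Pcna, the sliding clamp of the polymerases, had a difference of 0.30 ± 0.18 (adjusted p = 0.363), with a lowest value of 9.15 in knockout livers and of 7.74, in replicate 4, in control livers.

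The enzymes that supply nucleotides did not move together. Ribonucleotide reductase pairs a large subunit (Rrm1) with a small one (Rrm2): Rrm1 had a difference of 0.17 ± 0.13, and Rrm2 one of -0.16 ± 0.26. Rrm2 differed in sign between the runs, at -0.98 in run 1 and 0.44 in run 2, with an interaction of 1.42 that did not pass over all genes (p = 0.0049, adjusted p = 0.244). In run 1 the knockout livers ranged from 5.51 to 6.42 and the control livers from 6.26 to 7.56. Thymidine kinase (Tk1) ranged from 5.81 to 6.50 in knockout livers and from 5.67 to 7.02 in control livers, a difference of -0.26 ± 0.13 (adjusted p = 0.227), at 0.04 in run 1 and -0.49 in run 2, and in run 2 alone it was called as lower (adjusted p = 0.0145). Thymidylate synthase (Tyms) had a difference of -0.15 ± 0.10. Over all members the interaction of genotype and run passed for 0 in limma, against 0.0315% of all genes, and 3 (Rrm2, Tk1 and Cdk4) had an unadjusted p below 0.05, against 10.2% of all genes.

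**Figure D2:**
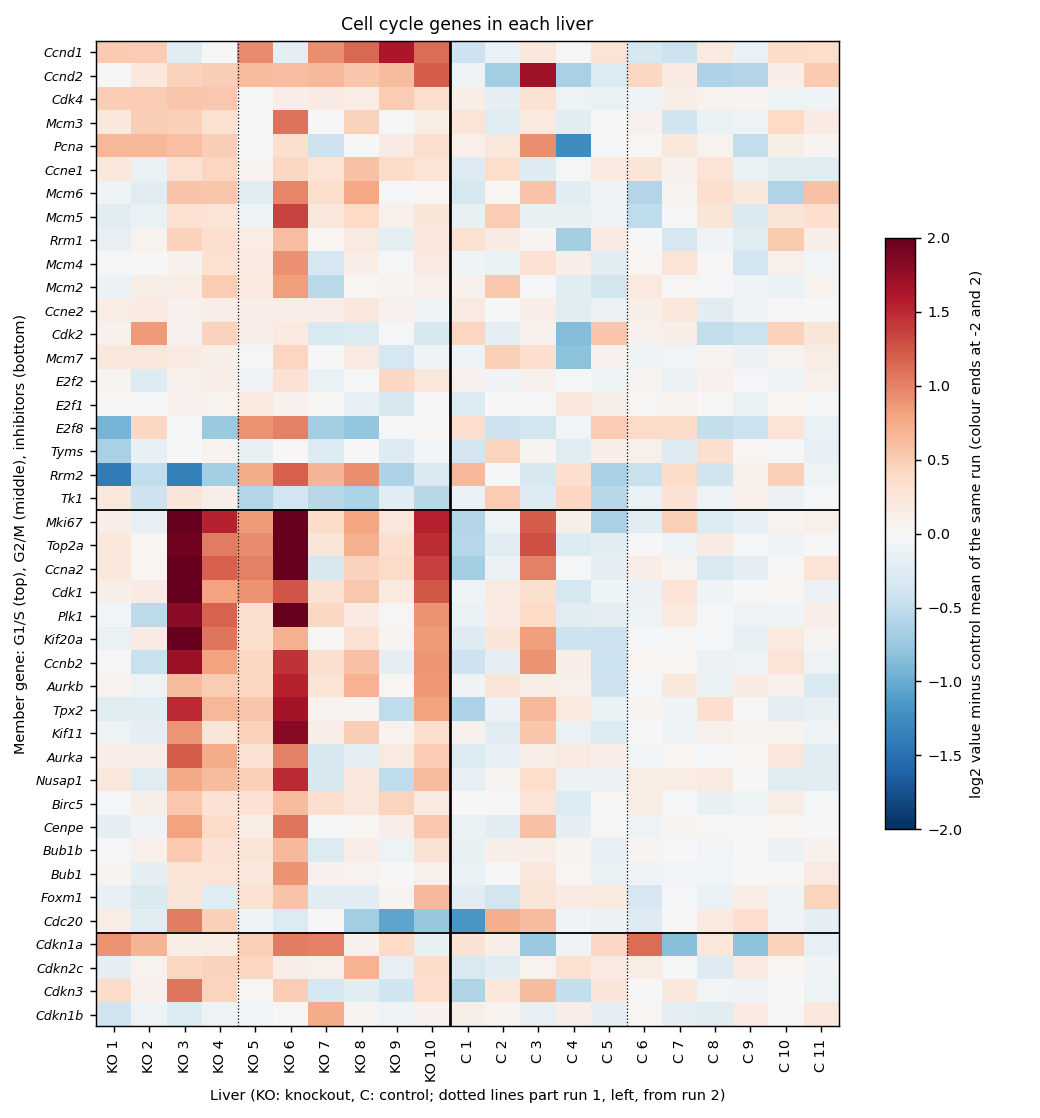
Each member (rows, G1/S at the top, G2/M in the middle, inhibitors at the bottom) in each liver (columns, knockout left, control right), as the log2 value after subtraction of the mean over same-run controls. Knockout replicates 3 and 6 are high across the G2/M rows, where their means are 1.27 and 1.43, and control replicate 3 is the highest control, at 0.55.

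The G2/M members had a median difference of 0.42, against 0.14 for the G1/S members, a contrast that was not tested, and their high values lay in a few of the knockout livers. Cdk1, the kinase that drives entry into mitosis, had a lowest, median and highest value of 3.67, 4.19 and 5.76 in knockout livers and 3.21, 3.47 and 3.88 in control livers. All 10 knockout livers lay above the control mean of their run and 6 above the highest run-centred control. Cdk1 averaged 4.28 ± 0.67 in knockout livers (SD, n = 10) and 3.51 ± 0.20 in control livers (SD, n = 11), a rise of 0.78 ± 0.20 (SE) or 1.71-fold (limma adjusted p = 0.0228). Within runs the rise was 0.82 and 0.74, and it was 0.53 without knockout replicates 3 and 6 (adjusted p = 0.0306).

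Birc5 (survivin), which holds the chromosomal passenger complex at the centromere, had a lowest, median and highest value of 2.83, 3.12 and 3.43 in knockout livers and 2.58, 2.85 and 3.13 in control livers. After subtraction of the control mean of each run, 6 of 10 knockout livers lay above the highest control, and the control mean was below the array median. The rise was 0.30 ± 0.08 or 1.23-fold (limma adjusted p = 0.0198), 0.23 in run 1 and 0.36 in run 2. Without knockout replicates 3 and 6 the difference was 0.23 and the call was lost (adjusted p = 0.0611). Aurkb, the kinase of the same complex, had a lowest, median and highest value of 3.71, 4.21 and 5.22 in knockout livers and 3.37, 3.77 and 4.09 in control livers. Its difference of 0.48 ± 0.15 did not pass (adjusted p = 0.0543), although 7 of 10 knockout livers lay above the highest run-centred control.

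The widest differences of all members were those of Mki67, Top2a and Ccna2, and none passed the test. Mki67, whose protein coats mitotic chromosomes and is the usual stain for cycling cells, had a lowest, median and highest value of 5.01, 5.73 and 7.93 in knockout livers and 4.52, 4.97 and 6.37 in control livers. Its difference was 1.07 ± 0.34 or 2.10-fold (adjusted p = 0.0564). Top2a, the topoisomerase that untangles replicated DNA, had values of 3.76, 4.35 and 6.68 in knockout livers and 3.31, 3.54 and 5.18 in control livers, a difference of 1.0 ± 0.31 (adjusted p = 0.053). For both genes the highest values were those of knockout replicates 6 and 3, and the highest control, replicate 3, lay above most of the knockout livers.

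Cyclin A2 (Ccna2), a partner of Cdk1 and Cdk2, had a lowest, median and highest value of 3.16, 4.22 and 6.27 in knockout livers and 2.95, 3.51 and 4.63 in control livers, with a difference of 0.93 ± 0.31 (adjusted p = 0.0713). Cyclin B2 (Ccnb2) had values of 3.77, 4.56 and 5.94 in knockout livers and 3.78, 4.02 and 5.12 in control livers, with a difference of 0.55 ± 0.23 (adjusted p = 0.151). The polo-like kinase Plk1, which acts from the entry into mitosis to its end, had values of 3.44, 4.02 and 5.95 in knockout livers and 3.55, 3.78 and 4.36 in control livers. Its difference of 0.65 ± 0.26 (adjusted p = 0.136) came with the largest ratio of spreads among the members, a run-centred SD of 0.94 in knockout livers against 0.20 in control livers. The centrosome kinase Aurka had a difference of 0.38 ± 0.15 (adjusted p = 0.128).

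**Figure D3:**
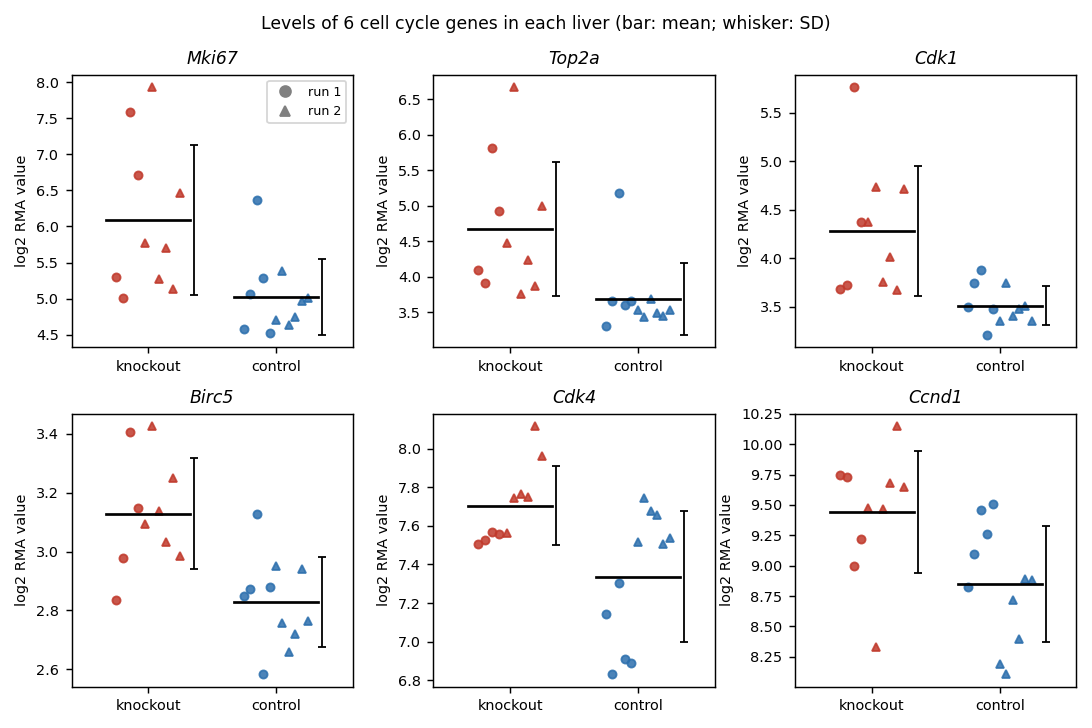
Log2 RMA value of Mki67, Top2a, Cdk1, Birc5, Cdk4 and Ccnd1 in each knockout liver (left in each panel) and control liver (right), with run 1 as circles, run 2 as triangles, the mean as a bar and the SD as a whisker. In Mki67, Top2a and Cdk1 a few knockout livers stand far above the rest, while Cdk4 and Ccnd1 lack such a tail.

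Among the spindle genes, the cytokinesis motor Kif20a ranged from 3.44 to 5.81 in knockout livers and from 3.20 to 4.45 in control livers, a difference of 0.57 ± 0.22 (adjusted p = 0.127). The spindle motor Kif11 had a difference of 0.41 ± 0.18, the microtubule-binding proteins Tpx2 and Nusap1 had differences of 0.43 ± 0.23 and 0.34 ± 0.18, and the kinetochore motor Cenpe one of 0.28 ± 0.14. The checkpoint genes Bub1b and Bub1 had differences of 0.19 ± 0.09 and 0.17 ± 0.09. For each of these 7 genes the highest of the 21 values was that of knockout replicate 3 or 6.

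Foxm1 and Cdc20 stood apart from the other G2/M members in size or sign. Foxm1, the factor that induces many mitotic genes, ranged from 2.76 to 3.63 in knockout livers and from 2.65 to 3.51 in control livers, a difference of 0.06 ± 0.13, at -0.11 in run 1 and 0.18 in run 2. Cdc20, which activates the anaphase promoting complex, ranged from 4.46 to 6.55 in knockout livers and from 4.36 to 6.25 in control livers, a difference of -0.13 ± 0.22, at 0.35 in run 1 and -0.48 in run 2 (interaction p = 0.0568). Neither group lay apart from the other for either gene.

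None of the 4 inhibitors passed in limma, and 2 (Cdkn1a and Cdkn2c) had a positive difference at an unadjusted p below 0.05. Cdkn1a, an inhibitor of cyclin-dependent kinases and a target of p53, had a lowest, median and highest value of 9.10, 10.27 and 11.14 in knockout livers and 8.4, 9.72 and 10.65 in control livers, with a difference of 0.47 ± 0.22 (adjusted p = 0.217); 9 of 10 knockout livers lay above the control mean of their run and 0 above the highest run-centred control. Cdkn2c, which blocks Cdk4 and Cdk6, had a difference of 0.23 ± 0.10 (adjusted p = 0.193). Cdkn3, a phosphatase that acts on cyclin-dependent kinases, had a difference of 0.20 ± 0.16, at 0.49 in run 1 and -0.019 in run 2. Cdkn1b, which holds resting cells in G1, had a median of 6.55 in knockout livers and 6.65 in control livers and a difference of -0.02 ± 0.10.

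An average over the 18 G2/M members was taken in each liver after subtraction of the mean over same-run controls. The knockout livers gave 0.02, -0.11, 1.27 and 0.66 for replicates 1 to 4 of run 1 and 0.45, 1.43, 0.06, 0.24, -0.01 and 0.69 for replicates 5 to 10 of run 2. The control livers ranged from -0.31 to 0.55 with a median of -0.007. So 4 knockout livers, replicates 3, 4, 6 and 10, lay above the highest control, and the other 6 lay within the range of the controls. That highest control was replicate 3, and the next highest, control replicate 7, gave only 0.06. Knockout replicate 6 held the highest of all 21 run-centred values for 12 of the 18 G2/M members, knockout replicate 3 for 5 and knockout replicate 10 for 1. The spread was wider in knockout livers for 17 of 18 G2/M members, with a median ratio of run-centred SDs of 2.18, and for 11 of 20 G1/S members, with a median ratio of 1.03. Spreads were not tested. The G1/S average ran from -0.04 to 0.50 in knockout livers, with a median of 0.15, and from -0.23 to 0.18 in control livers, with a median of 0.02.

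The averages of neutrophil, monocyte, and megakaryocyte and platelet markers were each highest in the 2 livers with the highest G2/M averages. In knockout replicates 6 and 3 the monocyte average was 2.55 and 1.47, and the megakaryocyte and platelet average 0.63 and 0.87. Knockout replicate 9 gave nearly the same megakaryocyte and platelet average as replicate 6, at 0.59, with a G2/M average of -0.01. The B cell and plasma cell average was highest in replicate 6 (1.89), but replicate 3 (0.96) lay below replicate 4 (1.29). Over 10 markers of neutrophils and their precursors, the average was 5.30 in knockout replicate 6, 3.02 in replicate 3 and between 0.16 and 1.11 in the other knockout livers, against -0.10 to 0.11 in control livers. The control means of all 10 lay below the array median. Elane, a protease gene of early granulocyte precursors, reached 9.25 in knockout replicate 6 and 5.77 in replicate 3, while controls ranged from 3.0 to 3.73. Replicate 9, with a neutrophil average of 1.03, had a G2/M average of -0.01, and replicate 10, with 0.37, had 0.69. Of the 10 neutrophil markers 1 (Ngp) passed, of 9 monocyte markers 4 and of 9 B cell and plasma cell markers 5, all higher. Of 10 Kupffer cell markers 6 passed and of 10 stellate cell markers 5, also higher, against 3.28% of all genes. At an unadjusted p below 0.05 in limma, 8, 7, 7, 7 and 7 markers of these lists were higher, against 9.41% of all genes. Of 10 T and NK cell markers 2 passed, of 10 markers of endothelium in general 1, and of 6 megakaryocyte and platelet markers 1, also higher. For these lists 3, 3 and 2 markers were higher at an unadjusted p below 0.05, and 1 T and NK cell marker was lower. Control replicate 3 was the highest control for the monocyte, B cell and Kupffer cell averages (0.61, 0.92 and 1.17). Of 11 markers of erythroid precursors 0 passed in limma (2 at an unadjusted p below 0.05), likewise 0 of 8 hepatocyte markers (2) and 0 of 5 cholangiocyte markers (1). The erythroid averages ranged from -0.28 to 0.36 in knockout livers and from -0.10 to 0.23 in control livers, and the highest was that of knockout replicate 3. The Kupffer cell average was highest among knockout livers in replicate 2 (1.38), whose G2/M average was their lowest, and the stellate cell average was lowest among them in replicate 6 (0.19), whose G2/M average was the highest. The part of these cells in the G2/M result was not tested. Without knockout replicates 3 and 6 the G2/M median was 0.21, the G1/S median 0.09, and Cdk4, Cdk1 and Ccnd1 were the members called.

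**Figure D4:**
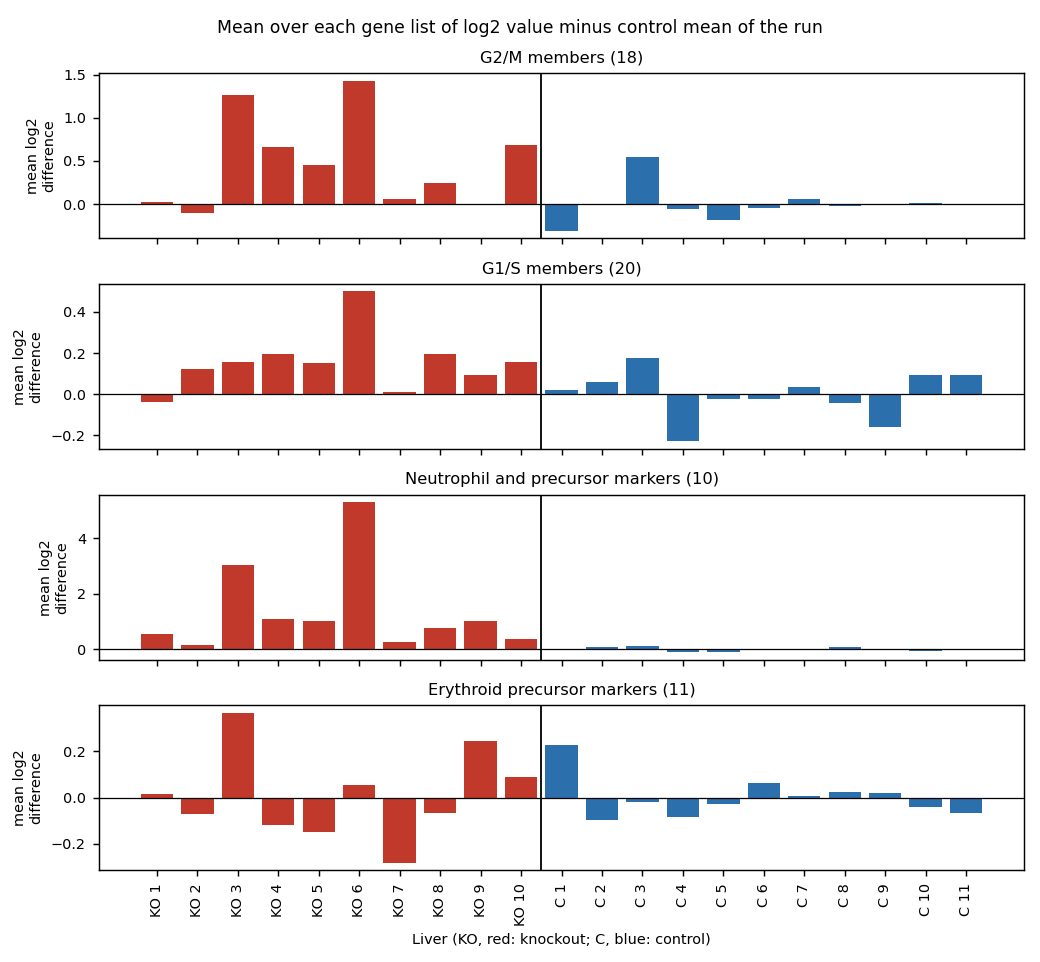
Mean over each gene list of the log2 value in each liver, after subtraction of the mean over same-run controls (y axis), knockout in red at the left and control in blue at the right. The G2/M average and the neutrophil average are both highest in knockout replicates 6 and 3, and the erythroid average is 0.05 in replicate 6 and 0.36, the highest of all livers, in replicate 3.

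Whether the members varied together among livers of one genotype and run was asked by setting each against Mki67, after centring both on the mean of their genotype and run. Of 41 relations over 21 livers, 21 passed at a Benjamini-Hochberg adjusted p below 0.05 with 100000 permutations within genotype and run. They comprised 16 of 17 G2/M members, 4 of 20 G1/S members and Cdkn3. For Ccnb2 Pearson's r was 0.94, with the smallest p that these permutations can give (1e-05), and Spearman's rho was 0.93. Top2a had r = 0.94 (adjusted p = 0.00041) and rho = 0.85 (adjusted p = 0.00255), and Cdk1 had r = 0.82 (adjusted p = 0.0005) and rho = 0.80 (adjusted p = 0.00299). The median r was 0.85 over the G2/M members and 0.29 over the G1/S members. Cdc20 was the G2/M member that did not pass (r = 0.50, adjusted p = 0.0865). Livers share the array normalisation, and the dividing cells behind these values were not counted.

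Among the G1/S members, Mcm4 (r = 0.75, adjusted p = 0.00067; rho = 0.73), Mcm6 (r = 0.59, adjusted p = 0.0179) and Mcm5 (r = 0.59, adjusted p = 0.0364) ran with Mki67, and Ccnd1 ran against it (r = -0.62, adjusted p = 0.0364; rho = -0.50, adjusted p = 0.0929). The livers farthest from the median of Mki67 were knockout replicates 6 and 3. Without them 18 relations passed, 14 of them of G2/M members. In that setting r was 0.89 for Top2a, 0.77 for Cdk1 and 0.71 for Mcm4. The values kept the centring over all livers and were not centred again after these livers were left out. Every r of that setting therefore mixes an offset between groups with variation within genotype and run. Without knockout replicates 6 and 3, Ccnd1 had r = -0.27 over the livers of both genotypes and did not pass (adjusted p = 0.4). Mcm5, Mcm6, Birc5 and Foxm1 did not pass either. Cdkn1a (r = -0.58, adjusted p = 0.00471) and Ccnd2 (r = 0.59, adjusted p = 0.0352) passed only in that setting among those run, with r = -0.32 (adjusted p = 0.157) and r = 0.43 (adjusted p = 0.0506) over all livers.

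Within the 10 knockout livers 20 relations passed, with a median r of 0.92 over the G2/M members. Ccnd1 had r = -0.88 (adjusted p = 0.011) and rho = -0.88 there, and Rrm1, which did not pass over all livers, had r = 0.92 (adjusted p = 0.00358). Within the 11 control livers the median r over the G2/M members was 0.65 and 0 relations passed in the permutation test (6 at an unadjusted p below 0.05), with r = 0.16 for Ccnd1 and r = -0.22 for Rrm1. The difference of these correlations between genotypes was not tested.

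**Figure D5:**
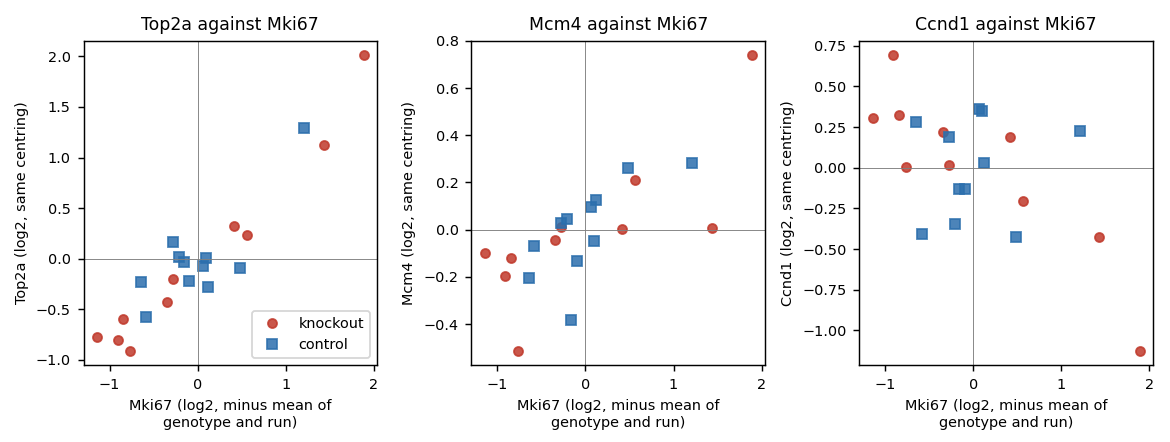
Top2a, Mcm4 and Ccnd1 (y axes) against Mki67 (x axes) in 10 knockout livers (red circles) and 11 control livers (blue squares), each as log2 value minus the mean of its genotype and run. Top2a follows Mki67 (r = 0.94), Mcm4 less closely (r = 0.75), and Ccnd1 runs against it (r = -0.62). Without the 2 knockout livers at the right, and with values not centred again, r is -0.27 for Ccnd1.

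Other genes of the cycle were counted in 9 lists. Of 185 measured genes 14 rose and 4 fell, against the 7.33% of all genes called in either direction. The nearest to the G2/M members were 30 genes of spindle motors, condensin and cytokinesis: 30 of 30 differences were positive, the median was 0.24, and 1 passed, Cit, a kinase of the cleavage furrow (0.15 ± 0.04, adjusted p = 0.0395), while 17 had an unadjusted p below 0.05. Their average over the list ran from -0.04 to 0.67 in knockout livers and from -0.13 to 0.34 in control livers. Of 30 kinetochore and checkpoint genes 23 were positive, with a median of 0.16; Spc25, of the complex that grips microtubules, rose by 0.41 ± 0.10 (adjusted p = 0.0153), and the checkpoint kinase Ttk by 0.26 ± 0.07 (adjusted p = 0.0248). Of 17 genes of the anaphase promoting complex and its regulators 9 were positive, with a median of 0.02; Ube2s, which extends its ubiquitin chains, rose by 0.58 ± 0.09 (adjusted p = 0.0015), its inhibitor Fbxo5 rose by 0.31 ± 0.09 (adjusted p = 0.0372) and its subunit Anapc11 fell by 0.23 ± 0.06 (adjusted p = 0.0168).

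Other lists hold genes of G1 and S phase. Of 14 other kinases, cyclins and CDC25 phosphatases 12 were positive, with a median of 0.15. Cdk6, the second partner of the D cyclins, had a mean of 7.34 ± 0.23 in knockout livers (SD, n = 10) and 6.92 ± 0.28 in control livers (SD, n = 11) and rose by 0.40 ± 0.10 (limma adjusted p = 0.0151). The phosphatase Cdc25a, which activates Cdk2, rose by 0.41 ± 0.12 (adjusted p = 0.0345), and Mnat1, a subunit of the kinase that activates Cdk1 and Cdk2, fell by 0.30 ± 0.08 (adjusted p = 0.0304). Of 37 genes of origin licensing and the replication fork 23 were positive, with a median of 0.01; Dbf4, the partner of Cdc7, rose by 0.39 (adjusted p = 0.0486) and the primase subunit Prim1, named after its value was seen, by 0.57 (adjusted p = 0.0491), while the initiation factor Mcm10 fell by 0.52 (adjusted p = 0.0293) and the origin subunit Orc3 by 0.29 (adjusted p = 0.0455). Of 13 E2F, DP, MuvB and MYB factors 1 passed, the MuvB subunit Lin52, with a rise of 0.58 ± 0.10 (adjusted p = 0.0029), and of 7 other inhibitors and RB proteins 1, Rbl1, with a rise of 0.37 ± 0.11 (adjusted p = 0.0494).

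Of 21 growth and immediate early genes 2 rose: Egfr, the receptor of epidermal growth factor, by 0.77 ± 0.18 (adjusted p = 0.0124), at 0.21 in run 1 and 1.19 in run 2, and Ier3 by 0.50 ± 0.13 (adjusted p = 0.027). Of 16 p53 target genes 1 rose, the death receptor gene Tnfrsf10b, by 0.49 ± 0.11 (adjusted p = 0.0115), and the median was 0.06. Many of these calls lay close to the threshold: Prim1 was lost in 18 of 21 fits that left out 1 array, Orc3 and Rbl1 each in 16, Dbf4 and Cit in 15, Fbxo5 in 12, Cdc25a in 10, Mnat1 in 7, Mcm10 in 6 and Ier3 in 2. Without knockout replicates 3 and 6, Ube2s (0.50, adjusted p = 0.0062), Lin52, Tnfrsf10b, Egfr, Cdk6, Spc25, Mnat1 and Anapc11 (adjusted p = 0.0497) still passed.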

How the data were processed

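Total RNA of whole liver was hybridised to Affymetrix arrays, 1 per animal, for 10 knockout and 11 control livers. The deposited table holds log2 values made by the authors with RMA, per the submitters' processing notes; the RMA version, array type and genome build are not stated there. Every array has the same sorted values to within 0.00193, so differences are relative to the whole array. Each of the 25428 rows is 1 gene; symbols came from the platform annotation, which names 24705 rows. The number of arrays limits the precision (median SE of a difference 0.078).

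The linear model of limma 3.58.1 (R 4.3.3, moderated by eBayes, two-sided) held genotype and run of sample numbers for the 21 arrays, and p-values were adjusted by Benjamini-Hochberg over every row; a gene was called at an adjusted p under 0.05. Runs are known from the numbers alone, and no label calls them batches. Another fit had a genotype by run term. Correlations used 100000 permutations. Labels call the samples biological replicates.

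The members, 9 pathway lists (185 of 190 symbols measured) and 12 cell type lists (108 of 116) were chosen with earlier results of these data known. The text names all members and, from each pathway list, up to 3 called genes with the lowest adjusted p, plus Prim1. Same-numbered livers of the genotypes did not deviate together (r between -0.09 and 0.18 over 10 numbers, above 0.1 in 3), so the numbers do not pair them.

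Alternatives left out the run term, used each run alone, the replicate number as a block, a second quantile normalization, median centring, no dim genes, an intensity trend with robust prior, array weights and each array left out. Leaving out knockout replicates 3 and 6 together, and ranking by Spearman's rho, were chosen after seeing the data. On simulated data with the spread of these arrays, the knockout minus control test was run over 25428 rows. It recovered 77% of 100 genes changed by 0.5 and 96% of 100 changed by 1, with 9 false calls. Those genes were drawn at random and had the same spread in both genotypes. The shares do not carry over to G2/M members with a larger SE, such as Mki67 (0.34, against a median of 0.078 over all genes). Promoters came from RefSeq, GRCm38.p6. Figures were drawn with matplotlib 3.10.9.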

Additional observations from a re-analysis of the deposited data

Results flagged for a closer look

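In 7 of the 42 members 1 knockout liver lay far from the other 9, by Dixon's ratio of the gap to the range (critical value 0.466 for 10 livers). Chance flags about 1 group in 20, and the 11 control livers were not tested. Knockout replicate 6 stood high for Mcm4 (5.56, next liver 4.83), Mcm5 (5.52, next liver 4.56) and Bub1 (3.68, next liver 3.03). Knockout replicate 3 stood high for Cdk1 (5.76, next liver 4.73) and Kif20a (5.81, next liver 4.68). Knockout replicate 10 stood high for Ccnd2 (6.84, next liver 6.26), and replicate 7 for the inhibitor Cdkn1b (7.35, next liver 6.70). Replicates 6 and 3 are also the livers with the highest averages of neutrophil (5.30 and 3.02), monocyte (2.55 and 1.47) and megakaryocyte and platelet markers (0.63 and 0.87). Knockout replicate 9 came close to replicate 6 in megakaryocyte and platelet markers (0.59), with a G2/M average of -0.01. The part of those cells in these values was not tested.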

How the results depend on the processing

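Cdk4, Cdk1 and Birc5 were the 3 members called, and each kept its call in all 21 fits that left out 1 array, over which the number of members past the threshold ranged from 3 to 9. That number was 7 with the replicate block, 7 without dim genes, 7 with array weights and 0 in run 1 alone. The cause of these changes was not tested. Run 1 has fewer livers, and the fit without dim genes tested fewer genes. Dim genes were set by the mean over livers of both genotypes, so a member dim in controls could stay through its knockout values. The count without dim genes can therefore depend on that filter. The share of all genes called is not set beside the counts of 7, or beside the range of 3 to 9. The replicate number does not pair the livers; its block added Ccna2, Ccnb2, Mki67 and Top2a to the calls. Some differences that had not passed changed sign: in run 1 alone Cdc20 was 0.35, Foxm1 -0.11 and Tk1 0.044; in run 2 alone Cdk2 was -0.10, Cdkn1b 0.13, Cdkn3 -0.019, E2f1 -0.024, E2f8 0.073 and Rrm2 0.44; without knockout replicates 3 and 6 Cdkn1b was 0.0067, E2f1 -0.018 and Foxm1 -0.029; with the replicate block Cdkn1b was 0.012. With 1 array left out, Cdkn1b ranged from -0.10 to 0.017 and E2f1 from -0.028 to 0.036. Relations with Mki67 numbered 0 in control livers alone, where Ccnd1 had r = 0.16; Spearman's rho passed 19. Without knockout replicates 3 and 6 the call of Birc5 was lost (adjusted p = 0.0611) and the G2/M median was 0.21, against 0.42 over all livers. Dim signal limits the G2/M members most, since 11 of 18 lay below the array median in controls.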
